A study of Rattus norvegicus with 102 samples.

Results

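CA1 libraries of old rats with intact spatial memory were compared with those of young rats. Of the 102 libraries of the series, 22 enter the comparison: 12 from aged-unimpaired (AU) rats and 10 from young rats, 1 library per rat, chosen by the subfield and group in the sample labels. The animals were male Fischer 344 rats, an inbred strain, and the labels name no transgene and no drug treatment. Young rats were 5 to 6 months old and aged rats 17 to 22 months old. All had been trained in a water maze with cue and spatial tasks before tissue was taken, and an aged rat was classed as AU when its probe-trial discrimination index was above the lowest score of a young rat, and otherwise as aged-impaired (AI, 12 rats). The AU group is therefore defined by 1 probe trial and not by age alone. CA1 was dissected by hand without separate isolation of CA2 or subiculum, and poly-A RNA was sequenced on the Ion Proton. In such bulk tissue, fewer cells of a type and less RNA per cell cannot be told apart.

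CA1 pyramidal cells send the main output of the hippocampus and are among the neurons most studied in age-related memory decline. Around them, microglia clear debris and sense damage, astrocytes support synapses and react to injury by making the filament protein GFAP, and oligodendrocytes make myelin. Complement proteins tag material for removal by microglia through C3 and C4 fragments, and MHC class II molecules present peptides on microglia and macrophages. A rise of such glial and immune transcripts is a well known feature of the aging rodent brain, and the comparison of AU with young rats asks how far it is present where memory is intact.

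The rat identifiers form 2 series, R9 and R1-R2, whose meaning the labels do not give, and each holds 5 young and 6 AU rats. The study tested its rats at a pair of sites with animals from different suppliers, and the numbers of young and aged rats per series equal those per site. The labels do not tie a rat to a site, and the part of site or supplier in a difference between the series was not tested. Sequencing depth was 7185647 to 17306878 recovered reads per library in young rats (median 13389945) and 5360495 to 14283572 in AU rats (median 9573090.5). The CA1 marker genes, 8 genes known from CA1 pyramidal cells, summed to between 9290 and 22119 normalized counts (read counts divided by a size factor per library) in young rats and to between 2118 and 21625 in AU rats. The lowest sum belongs to AU rat R9869, which is the 1 library of these 22 whose CA1 score is not above its CA3 and dentate gyrus (DG) scores. Markers of choroid plexus, the tissue that secretes cerebrospinal fluid, summed to 42.3 to 2047 in young rats and 1.92 to 141960 in AU rats, with the highest sum in AU rat R9865.

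Libraries of AU rats R2230 and R2232 stand apart from the rest. Among 1834 genes with a mean of 20 to 50 normalized counts, 345 (18.8%) were at 0 reads in rat R2230 and 535 (29.2%) in rat R2232, whereas each of the other 20 libraries had at most 6 such genes (0.327%). The median correlation of their log2 values with those of the other CA1 libraries was 0.844 and 0.804, against 0.925 to 0.975 in the others. Both rats belong to the R1-R2 series and to the AU group, whose other 4 libraries were at or below 0.327%. Among AI rats, which enter only the last comparison, the share was 14.3% in rat R9874 and 5.62% in rat R2233. Results are followed by their value without the 2 AU libraries, an alternative chosen after the data were seen.

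**Figure D1:**
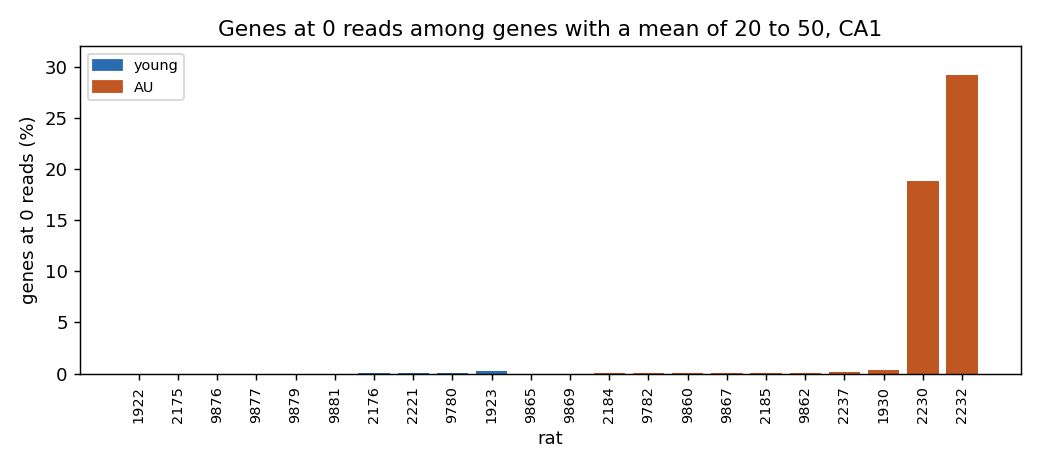
Share of genes at 0 reads (vertical axis, percent) among 1834 genes with a mean of 20 to 50 normalized counts in the 22 CA1 libraries (bars, 1 per rat, young in blue and AU in orange). AU rats R2230 and R2232 reach 18.8% and 29.2%, and the other bars are at or below 0.327%.

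No gene passed the test over the whole transcriptome. Of 16364 genes that averaged 5 or more normalized counts over these libraries, 0 (0%) were higher and 0 (0%) lower in AU than in young rats at adjusted p under 0.05 (limma on log2(normalized count + 1), two-sided, Benjamini-Hochberg adjustment). At unadjusted p under 0.05, 415 genes (2.54%) were higher and 299 (1.83%) lower, and at p under 0.01, 97 (0.593%) were higher and 30 (0.183%) lower. The genes with the smallest p were those of complement C4, the adaptor Blnk and the astrocyte filament Gfap, each at an adjusted p of 0.121 or, for C4b, 0.343. The edgeR quasi-likelihood test on recovered reads also called 0 genes, with 800 higher (4.89%) and 211 lower (1.29%) at unadjusted p under 0.05, whereas DESeq2 called 9 genes (0.055%), each of them higher in AU rats, among them both C4a entries, C4b, Blnk and Gfap.

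Without AU rats R2230 and R2232, 4 gene entries rose (0.0245% of 16335 tested) and 0 fell. They were Blnk, both C4a entries and Cx3cr1. At unadjusted p under 0.05, 539 genes (3.3%) were then higher and 271 (1.66%) lower. The median log2 fold change of all genes was -0.0399 with the 22 libraries and -0.0058 without the 2. Without 5 AU libraries that stand apart by absent genes, CA1 score or choroid plexus score (R2230, R2232, R9869, R9862 and R9865), 0 genes passed the threshold, with 333 higher (2.04%) and 199 lower (1.22%) at unadjusted p under 0.05. This alternative was also chosen after the data were seen. The choroid plexus scores were 5.01 in R9862 and 7.3 in R9865, and at most 3.18 in the others. Fewer AU rats are then left, so the 0 calls do not show smaller differences. Leaving out AU rat R1930 alone moved the counts over the 22 libraries to 752 higher (4.59%) and 705 lower (4.31%), and both C4a entries (0.0122% of genes) then rose at adjusted p = 0.0333 and 0.0386.

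Blnk encodes an adaptor that couples immune receptors to Syk signalling in B cells and myeloid cells. Its normalized counts were 113 to 158 in young rats (median 134) and 166 to 396 in AU rats (median 202). Every AU library lay above every young library, and it was the single gene of 16364 (0.00611%) for which AU and young libraries did not overlap with AU higher. The log2 fold change was 0.73 (SE 0.14, p = 1.56e-05, adjusted p = 0.121). The highest values were those of AU rats R2232 and R2230, without which the log2 fold change was 0.59 and the gene rose at adjusted p = 0.0271. The R9 rats alone gave 0.56 and the R1-R2 rats 0.91. By limma the R9 minus R1-R2 difference was -0.36 (p = 0.207), and -0.06 (p = 0.77) without R2230 and R2232.

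Complement C4 is cleaved to the C4b fragment that carries the classical pathway from C1 to C3. The table holds 2 entries named C4a and 1 named C4b. For C4a (ENSRNOG00000000443), young rats ranged from 53.1 to 151 (median 109) and AU rats from 109 to 304 (median 229). All 12 AU values were above the young median and 10 were above the highest young value, with the lowest AU values in rats R1930 and R2230. On the log2 scale the difference was 1.05 (SE 0.19, adjusted p = 0.121), and 1.07 without the 2 libraries, where it rose at adjusted p = 0.0369.

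The other C4a entry (ENSRNOG00000047657) ranged from 52.4 to 122 in young rats (median 91.9) and from 97 to 295 in AU rats (median 187), with a log2 fold change of 0.975 (adjusted p = 0.121; 1.06 and adjusted p = 0.0369 without the 2 libraries). C4b ranged from 32.3 to 77.3 (median 66.2) in young and from 57.5 to 198 (median 117) in AU rats, a log2 fold change of 0.89 (SE 0.19, adjusted p = 0.343; 0.96 and adjusted p = 0.0577 without the 2). The 3 entries had differences between 0.80 and 1.08 on the log2 scale in R9 rats and in R1-R2 rats taken alone. The C4 genes are similar copies, so reads can be split between them and the level of each single entry is uncertain. The 250 bases before the start of each copy (RefSeq, build GRCr8; the deposited reads were aligned to rn5) are shown because they make this likeness visible. They lie at chr20:4010107-4010356 (+) for C4a and chr20:4201729-4201978 (+) for C4b, and capitals mark the bases at which the copies differ once the sequences are aligned.
C4a: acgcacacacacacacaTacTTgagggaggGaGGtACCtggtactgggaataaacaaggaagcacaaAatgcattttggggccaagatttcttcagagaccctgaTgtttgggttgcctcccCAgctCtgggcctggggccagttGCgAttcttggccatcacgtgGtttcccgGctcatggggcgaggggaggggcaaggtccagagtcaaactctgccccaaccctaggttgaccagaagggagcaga
C4b: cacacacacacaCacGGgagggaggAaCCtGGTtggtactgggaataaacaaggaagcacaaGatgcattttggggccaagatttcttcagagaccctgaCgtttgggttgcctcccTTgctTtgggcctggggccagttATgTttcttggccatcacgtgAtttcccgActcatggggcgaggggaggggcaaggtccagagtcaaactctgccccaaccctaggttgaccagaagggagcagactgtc
Over the 245 aligned bases, 226 are identical (92.2%) and 19 differ. The transcripts, to which reads map, were not compared.

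Of the 20 measured genes in a list of complement components and receptors, 3 were higher at unadjusted p under 0.05 (C4a, C4b and C3; 15%, against 2.54% of all genes) and 0 lower, and the median log2 fold change was 0.07. Without AU rats R2230 and R2232, 9 were higher, against 3.3% of all genes, and the median was 0.31. C3, on which the complement pathways converge, was 346 to 1370 in young rats (median 603) and 199 to 2541 in AU rats (median 1218). In 11 of 12 AU rats it lay above the young median, and the lowest value of all 22 was in an AU rat, which also was the case for Cx3cr1 and Trem2. The log2 fold change of C3 was 0.77 (SE 0.30, p = 0.0178, adjusted p = 0.819) and 1.09 without the 2 libraries (p = 2.14e-05, adjusted p = 0.0577).

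**Figure D2:**
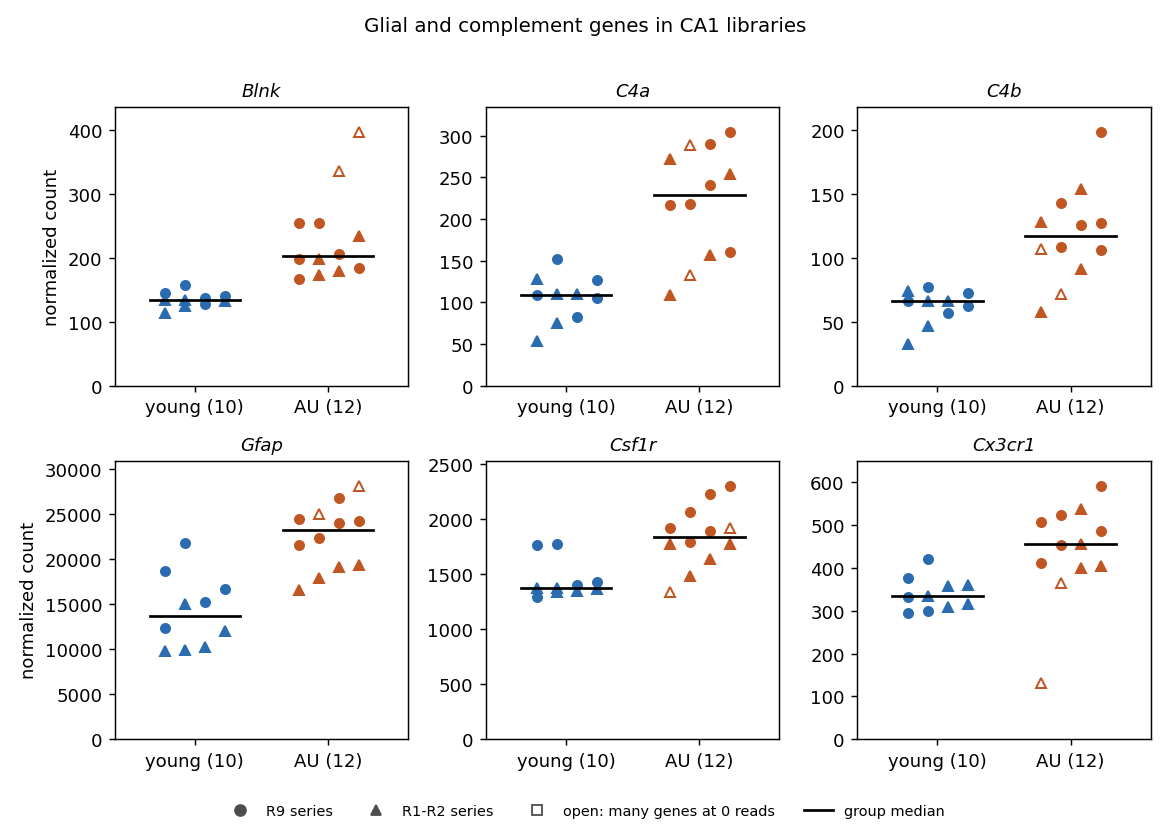
Normalized counts (vertical axes, linear, from 0) of 6 glial and complement genes in the CA1 libraries of 10 young (blue) and 12 AU rats (orange). Circles mark the R9 series, triangles the R1-R2 series, open symbols AU rats R2230 and R2232, and lines the group medians. Blnk separates the groups, with 166 as the lowest AU value and 158 as the highest young one, while the other 5 genes overlap.

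Genes of microglia tended to be higher in AU rats. Of 21 measured genes in a list of general microglial genes, 8 (38.1%, against 2.54% of all genes) were higher at unadjusted p under 0.05 and 0 lower, 0 passed at adjusted p under 0.05, and the median log2 fold change was 0.32 against -0.0399 for all genes. Without the 2 libraries 12 were higher (against 3.3% of all genes), 21 of 21 were above 0, and the median was 0.34 against -0.0058 for all genes. Csf1r, the receptor for the growth factors on which microglia depend, was 1297 to 1776 in young rats (median 1378) and 1335 to 2303 in AU rats (median 1840). Of the 12 AU rats, 8 lay above every young rat, and the lowest AU value was that of rat R2230. Its log2 fold change was 0.34 (SE 0.09, p = 0.000817, adjusted p = 0.819), and 0.38 without the 2 libraries (p = 0.000122).

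Cx3cr1, the microglial receptor for the neuronal chemokine fractalkine, was 296 to 422 in young rats (median 334) and 132 to 592 in AU rats (median 455). The lowest AU value, 132, was in rat R2232 and lay below every young value, whereas 11 of 12 AU rats were above the young median. With that library and that of rat R2230 in the fit the log2 fold change was 0.30 (SE 0.17, p = 0.098), and without them it was 0.48 and the gene rose at adjusted p = 0.0369. Laptm5, a lysosomal membrane protein of blood and microglial cells, had a log2 fold change of 0.34 (p = 0.00615) and 0.46 without the 2 libraries (adjusted p = 0.0511 by limma, and 0.0375 by edgeR, which then called 6 entries, 0.0367%). Nckap1l, a regulator of actin in blood-lineage cells, had 0.45 (SE 0.12, p = 0.000981; 0.43 without the 2). Gpr183, an oxysterol receptor that guides immune cells, ranged from 12.3 to 46.4 in young rats (median 28.2) and from 28.3 to 140 in AU rats (median 47.7), so that 12 of 12 AU rats were above the young median (log2 fold change 0.96, SE 0.28, p = 0.0024; 0.74 and p = 0.00516 without the 2).

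The summed normalized counts of 10 microglial markers were 3949 to 6022 in young rats (median 4422) and 3510 to 7425 in AU rats (median 5689). The groups overlap in this sum, and without the 2 libraries the AU range was 5084 to 7425. Whether the differences of single microglial genes follow this sum was not tested. Genes known from phagocytic or activated microglia were less uniform, with 2 of 19 higher at unadjusted p under 0.05 (10.5%, against 2.54% of all genes) and a median of 0.16, and 10 higher (against 3.3% of all genes) and a median of 0.39 without the 2 libraries. Their median was 0.60 in R9 rats and -0.20 in R1-R2 rats, where it was 0.29 without the 2 libraries. Gpnmb, a glycoprotein of lipid-laden phagocytes, was 99.2 to 234 in young (median 136) and 113 to 382 in AU rats (median 224), a log2 fold change of 0.65 (p = 0.00329; 0.75 without the 2). Tyrobp, the signalling partner of Trem2, had 0.49 (p = 0.014; 0.62 without the 2), and Trem2 itself 0.32 (p = 0.19; 0.61 and p = 8.89e-05 without the 2 libraries).

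Of 24 measured genes of Fc receptors and immune receptor signalling, a list that holds Blnk, 6 (25%, against 2.54% of all genes) were higher at unadjusted p under 0.05 and 0 lower, and 10 were higher without the 2 libraries (against 3.3% of all genes). Lcp2, another adaptor of Syk-type signalling, was 82 to 106 in young (median 93.6) and 97.3 to 176 in AU rats (median 124), with 8 AU rats above the highest young value (log2 fold change 0.40, SE 0.12, p = 0.00283; 0.32 without the 2). Fcgr2b, the inhibitory receptor for immunoglobulin G, had 0.53 (p = 0.0362; 0.705 and p = 0.00148 without the 2).

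Lysosomal genes, whose products degrade material taken up by cells, gave 12 of 48 higher at unadjusted p under 0.05 (25%, against 2.54% of all genes) and 0 lower, with a median of 0.13, and 17 higher without the 2 libraries (against 3.3% of all genes). Dnase2, which digests DNA in lysosomes, was 139 to 188 in young (median 167) and 167 to 519 in AU rats (median 212), and 10 AU rats were above every young rat (log2 fold change 0.61, p = 0.00302). Tpp1, a lysosomal peptidase, was 821 to 1030 in young (median 880) and 934 to 3613 in AU rats (median 1154), also with 10 AU rats above every young rat (0.60, p = 0.00381). These 2 differences were smaller without the 2 libraries, at 0.40 and 0.35. Hexa, a subunit of the enzyme that cleaves GM2 ganglioside, had 0.31 (p = 0.0082; 0.26 without the 2), and Ctsz, a cathepsin, 0.41 (p = 0.0228; 0.46 without the 2).

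Genes of MHC class II presentation had the highest median of the lists with at least 6 measured genes. The list also holds Ctss and Ifi30. Of 10 measured members, 3 (30%, against 2.54% of all genes) were higher at unadjusted p under 0.05 and 0 lower, and the median log2 fold change was 0.88. Without AU rats R2230 and R2232, 8 of 11 were higher (against 3.3% of all genes) and the median was 1.34. The median was 1.71 in R9 rats and 0.20 in R1-R2 rats, or 1.4 there without the 2 libraries. In the rat the class II genes are named RT1-B and RT1-D, with a and b for the alpha and beta chains, and Cd74 encodes the invariant chain that guides the dimers to the lysosome.

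Class II promoters are known for an arrangement of short boxes, the X and Y boxes, on which the class II transactivator assembles. The promoters of 3 genes that hold both boxes are shown as examples. The 250 bases before the start (RefSeq, GRCr8) lie at chr20:4515165-4515414 (+) for RT1-Da, chr20:4560163-4560412 (-) for RT1-Db1 and chr20:4604119-4604368 (-) for RT1-Bb. Capitals mark the X-box core searched, ACNGATG, and the Y box, ATTGG, where they form a pair.
RT1-Da: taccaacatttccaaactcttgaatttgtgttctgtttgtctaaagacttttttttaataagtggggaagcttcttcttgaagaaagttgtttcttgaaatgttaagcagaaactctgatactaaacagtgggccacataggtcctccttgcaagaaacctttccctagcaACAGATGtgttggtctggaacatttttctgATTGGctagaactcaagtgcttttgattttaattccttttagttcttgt
RT1-Db1: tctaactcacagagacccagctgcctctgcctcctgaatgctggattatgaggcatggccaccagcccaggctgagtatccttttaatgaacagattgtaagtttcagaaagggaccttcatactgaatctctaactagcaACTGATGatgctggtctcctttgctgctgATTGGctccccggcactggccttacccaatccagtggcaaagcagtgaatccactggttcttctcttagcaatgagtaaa
RT1-Bb: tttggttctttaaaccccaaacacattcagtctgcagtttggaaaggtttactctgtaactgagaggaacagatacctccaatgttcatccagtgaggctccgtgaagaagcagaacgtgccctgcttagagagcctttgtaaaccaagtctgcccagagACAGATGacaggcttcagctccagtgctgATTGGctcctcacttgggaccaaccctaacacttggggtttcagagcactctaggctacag
Both strands were searched, and the motifs do not overlap each other. RT1-Db1 and RT1-Bb also hold an ATTGG on the other strand, outside the pair, which is not marked. A pair was an X core and a Y box 15 to 35 bases apart on 1 strand. It was found in 48 of 33469 promoters of the same length (0.143%). Of the 14 genes listed for class II presentation, 12 had a RefSeq promoter, among them Cd74, Ctss and Ifi30. The pair was in 6 of these 12, each an RT1 gene. RT1-Ba and Cd74, whose values follow with those of the 3 genes shown, had no such pair in this window. Alone, ACNGATG is in 8.55% and ATTGG in 34% of promoters. A match describes letters in this window and is no measure of binding.

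RT1-Bb was 7.44 to 195 in young rats (median 13.8) and 14.9 to 244 in AU rats (median 66.7). All 12 AU rats were above the young median, but young rat R9780, at 195, lay above all AU rats except R9865 and R9782. The log2 fold change was 1.79 (SE 0.52, p = 0.00195, adjusted p = 0.819), and 2.16 without the 2 libraries (p = 0.000154, adjusted p = 0.119). Without young rat R9780 it was 2.15 (adjusted p = 0.223).

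RT1-Da was 7.4 to 216 in young (median 21.9) and 0 to 244 in AU rats (median 105), a log2 fold change of 1.49 (SE 0.71, p = 0.0471). RT1-Db1 was 2.29 to 184 in young (median 10.3) and 0 to 222 in AU rats (median 66.1), with 1.55 (SE 0.90, p = 0.0968). The AU values at 0 were those of rat R2232 for RT1-Da and of rats R2230 and R2232 for RT1-Db1, while the highest young value was that of rat R9780 for both. RT1-Ba was 6.68 to 176 in young (median 14.9) and 0 to 211 in AU rats (median 75.7). Its log2 fold change was 1.03 (p = 0.231), and it was -0.22 in R1-R2 rats alone, where rats R2230 and R2232 were at 0. Cd74 was 52.5 to 895 in young (median 93.4) and 0 to 962 in AU rats (median 447), with 1.14 (p = 0.183). Without the 2 libraries the log2 fold changes of RT1-Da, RT1-Db1, RT1-Ba and Cd74 were 2.06, 2.62, 2.12 and 2.02, with adjusted p between 0.104 and 0.144. RT1 genes are a family of similar sequences, so reads can be shared between members and single levels are uncertain.

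The sum of these 5 class II genes varied by identifier series. In the R9 series it was 984 to 1789 in the 6 AU rats (median 1414) and 133 to 1665 in the 5 young rats (median 219). In the R1-R2 series it was 23 to 554 in the 6 AU rats (median 412) and 90.3 to 513 in the 5 young rats (median 111). AU rats of the R9 series were thus all above AU rats of the other series, and among R9 rats 1 young rat, R9780, lay within the AU range. All 5 young R1-R2 rats lay within the AU range of 23 to 554, and without the 2 libraries, when the lowest AU sum was 392, only R2175 at 513 did. The difference between series in AU minus young was tested gene by gene, and 0 of 16364 genes passed at adjusted p under 0.05 (0%), with 233 higher (1.42%) and 119 lower (0.727%) at unadjusted p under 0.05. For RT1-Db1 that difference was 3.03 on the log2 scale (p = 0.0506, adjusted p = 0.952), and 1.30 without the 2 libraries (p = 0.237).

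**Figure D3:**
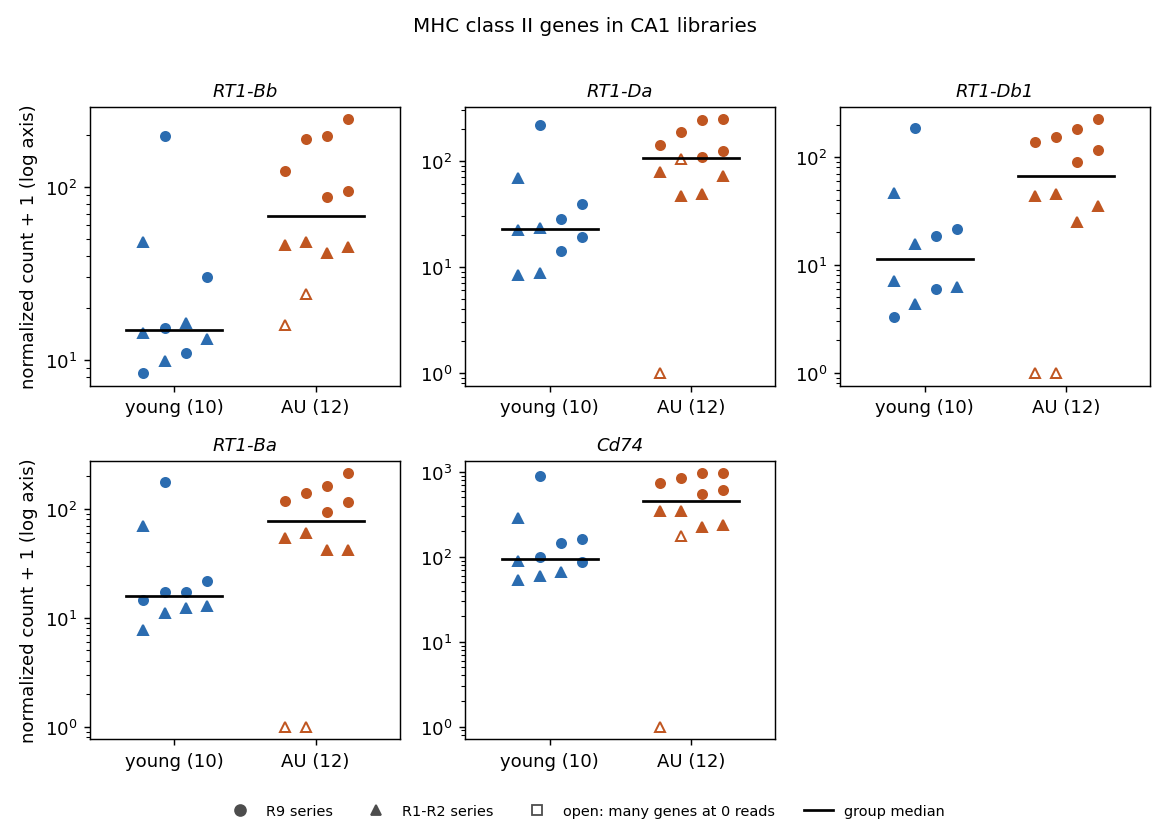
Normalized counts plus 1 (vertical axes, log scale) of 5 MHC class II genes in the CA1 libraries of 10 young (blue) and 12 AU rats (orange), with circles for the R9 series, triangles for the R1-R2 series, open symbols for AU rats R2230 and R2232, and lines for group medians. In RT1-Bb the medians were 13.8 and 66.7, and the single high young point, 195, is rat R9780.

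Genes of MHC class I and peptide loading were higher in 4 of 24 at unadjusted p under 0.05 (16.7%, against 2.54% of all genes) and lower in 0, with a median of 0.22. Without the 2 libraries 9 were higher (against 3.3% of all genes) and 0 lower. Nlrc5, the transactivator of class I genes, was 4.46 to 30.3 in young (median 23) and 20.8 to 66.2 in AU rats (median 34.9), a log2 fold change of 0.89 (SE 0.29, p = 0.00485; 0.99 without the 2). Tap1, the peptide transporter, was 27.9 to 89.9 in young (median 74.7) and 57 to 192 in AU rats (median 97.4), with 9 AU rats above the highest young value (0.56, p = 0.0129; 0.51 without the 2). Genes of the interferon response gave 2 of 28 higher (7.14%, against 2.54% of all genes), with a list median of -0.09. Without the 2 libraries 4 of 29 were higher (against 3.3% of all genes), with a median of 0.20. The 2 genes higher over the 22 libraries were Mx2 (0.37, p = 0.00801; 0.27 without the 2 libraries) and Ifih1 (0.55, p = 0.0166; 0.47 without the 2), both of antiviral defence.

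Among astrocyte genes Gfap had the smallest p. Its normalized counts had a median of 13706 and a highest value of 21816 in young rats and ran from 16635 to 28174 in AU rats (median 23230). All 12 AU rats were above the young median and 7 above the highest young rat, which was R9780. Its log2 fold change was 0.70 (SE 0.14, p = 2.95e-05, adjusted p = 0.121), and 0.65 without the 2 libraries (adjusted p = 0.111). With the identifier series as a covariate Gfap was the 1 gene (0.00611%) that rose, at adjusted p = 0.0477, and the difference was 0.52 in R9 and 0.88 in R1-R2. By limma the R9 minus R1-R2 difference was -0.36 (p = 0.12), and -0.18 (p = 0.359) without the 2 libraries.

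Of 21 genes known from reactive astrocytes, a list that also holds C3 and C4b, 4 (19%, against 2.54% of all genes) were higher and 0 lower at unadjusted p under 0.05, with a median of 0.03. Without the 2 libraries 6 of 20 were higher (against 3.3% of all genes). Of 19 genes of astrocytes in general 3 (15.8%, against 2.54% of all genes) were higher, with a median of -0.03. Without the 2 libraries 2 were higher (against 3.3%), with a median of 0.13. Ggta1, a galactosyltransferase of reactive astrocytes, was 56.5 to 126 in young (median 89.4) and 74.4 to 190 in AU rats (median 121; log2 fold change 0.46, p = 0.0167; 0.44 without the 2). Slc14a1, the urea transporter of astrocytes, had 0.31 (SE 0.098, p = 0.00455; 0.22 without the 2), with 0.10 in R9 and 0.51 in R1-R2. Its R9 minus R1-R2 difference was -0.41, and -0.28 without the 2 libraries. Sox9, an astrocyte transcription factor, had 0.72 (p = 0.0298), which was 0.35 without the 2 libraries, and its highest value, 2003, was that of rat R2230.

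Myelin and oligodendrocyte genes had a median log2 fold change of 0.20, with 22 of 30 above 0 (against 42.3% of all genes). At unadjusted p under 0.05, 3 of 30 (10%, against 2.54% of all genes) were higher. Without the 2 libraries 2 were higher (against 3.3% of all genes), with a median of 0.20. Without the 5 AU libraries that stand apart, 0 were higher (against 2.04% of all genes), with a median of 0.10. That fit leaves out R9869 and has fewer AU rats. Tf, the iron carrier transferrin that oligodendrocytes make, was 5893 to 14050 in young (median 7383) and 5926 to 20485 in AU rats (median 11569; 0.50, p = 0.0153; 0.54 without the 2). Gjb1, the connexin of myelin gap junctions, had 0.55 (p = 0.0176; 0.42 and p = 0.0518 without the 2) and Sox10, the transcription factor of the lineage, 0.35 (p = 0.0347; 0.33 without the 2). The summed oligodendrocyte markers were 59536 to 189327 in young (median 95943) and 83660 to 231117 in AU rats (median 127814), with young rat R9780 and AU rat R9869 the highest in their groups, and the part of this sum in the result was not tested. Iron storage genes Ftl1 and Fth1, the ferritin chains, had 0.69 (p = 0.00881) and 0.39 (p = 0.0178), or 0.63 and 0.41 without the 2 libraries. Hba-a2, a hemoglobin gene of red blood cells, was 127 to 1095 in young (median 444) and 318 to 3931 in AU rats (median 918), with its highest values in rats R2230 and R2232.

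Fewer genes were lower than higher in AU rats at unadjusted p under 0.05, and 0 fell at adjusted p under 0.05 with or without the 2 libraries. Cox5a, a nuclear-encoded subunit of cytochrome c oxidase, was 166 to 324 in young rats (median 260) and 93.6 to 262 in AU rats (median 156). In 7 AU rats it lay below every young rat, and 1 AU rat was above the young median. The log2 fold change was -0.62 (SE 0.17, p = 0.00133, adjusted p = 0.819), the same without the 2 libraries, with -0.64 in R9 and -0.60 in R1-R2. Of 67 measured genes of oxidative phosphorylation, 0 were higher and 3 lower at unadjusted p under 0.05 (4.48%, against 1.83% of all genes), with a median of -0.06. The other 2 were Atp5a1, of ATP synthase (-0.23, p = 0.0202; -0.18 without the 2), and Ndufb6, of complex I (-0.49, p = 0.0307; -0.45 and p = 0.053 without the 2).

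Shisa8, which belongs to a family of AMPA receptor auxiliary proteins, was 17.4 to 34.4 in young rats (median 27.5) and 1.49 to 23.9 in AU rats (median 13.8). In 10 of 12 AU rats it lay below the lowest young value, and the lowest AU value was that of rat R2230. The log2 fold change was -1.01 (SE 0.32, p = 0.00372) and -0.75 without the 2 libraries (p = 0.00199). Ndn, an imprinted regulator of neuronal growth, was 957 to 2044 in young (median 1521) and 611 to 1616 in AU rats (median 1124), and 11 of 12 AU rats were at or below the young median (-0.50, SE 0.15, p = 0.00343; -0.435 without the 2). Cldn20, a claudin of low level, was 4.85 to 9.98 in young rats (median 7.79) and 0 to 8.64 in AU rats (median 3.23), with 3 AU libraries at 0 (-1.32, p = 0.00318; -0.97 without the 2).

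Collagen genes, which encode fibres and basement membranes and are carried in brain mainly by vascular and meningeal cells, gave 0 of 35 higher and 3 lower (8.57%, against 1.83% of all genes) at unadjusted p under 0.05 and a median of -0.33. Leaving out the 2 libraries, 2 were lower (against 1.66% of all genes). The median moved to -0.13 without the 2 libraries, and it was 0.04 in R9 rats and -0.62 in R1-R2 rats, or -0.29 there without the 2. Col11a1, a fibrillar collagen chain, was 116 to 279 in young (median 187) and 47.9 to 248 in AU rats (median 106). In 7 AU rats it lay below every young rat, and AU rat R9869 was the 1 AU rat above the young median (-0.71, SE 0.21, p = 0.0023; -0.57 without the 2 libraries, p = 0.0045). Col24a1 had -1.32 (p = 0.0107; -0.75 without the 2) and Col4a2, of vascular basement membrane, -0.33 (p = 0.0262; -0.20 without the 2). Col4a5, a basement membrane chain, had -1.02 (p = 0.0787) with 1 AU library at 0, and -0.25 without the 2 libraries. The 6 mural cell markers, of smooth muscle and pericytes, summed to 863 to 2310 in young (median 1373) and 805 to 1650 in AU rats (median 1357), and 0 of the 6 passed unadjusted p under 0.05. The 11 markers of meningeal fibroblasts summed to 549 to 4592 in young (median 703, highest in R2175) and 515 to 4171 in AU rats (median 642, highest in R9865), with 0 of 11 past that threshold. The part of these sums in the collagen values was not tested.

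Of 46 measured genes of calcium handling, which set the calcium signals that drive CA1 plasticity, 6 (13%, against 1.83% of all genes) were lower at unadjusted p under 0.05 and 0 higher, with a median of -0.14. Without the 2 libraries 4 were lower (against 1.66% of all genes), with a median of -0.06. Ryr1, a calcium release channel of internal stores, was 202 to 405 in young (median 259) and 58 to 336 in AU rats (median 183), with 7 AU rats below every young rat and the lowest value in rat R2230. Its log2 fold change was -0.60 (SE 0.22, p = 0.0107), and -0.45 without the 2. Vsnl1 and Ncald, neuronal calcium sensors, had -0.38 (p = 0.0126) and -0.30 (p = 0.0146), and Cacna1b, the pore of N-type calcium channels, -0.21 (p = 0.0241). These were, without the 2 libraries, -0.26, -0.20 and -0.14, with p = 0.045, 0.0472 and 0.0532.

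Dcx, a microtubule protein of migrating young neurons, was 195 to 416 in young (median 324) and 108 to 316 in AU rats (median 222), and 0 of 12 AU rats were above the young median (-0.47, SE 0.17, p = 0.01; -0.49 without the 2). In the DG of the same rats the difference was -0.51 (p = 0.00954). Markers of DG granule cells in the CA1 libraries summed to 3660 to 8297 in young (median 5779) and 2242 to 7610 in AU rats (median 4881), and their part in the result was not tested. Interneuron genes had a median of -0.21 with 2 of 23 lower (8.7%, against 1.83% of all genes), Crh, a stress peptide (-1.13, p = 0.0258; -0.54 without the 2 libraries), and Gad1, the GABA-synthesizing enzyme (-0.30, p = 0.0285). Without the 2 libraries that median was -0.08 and Gad1 was at -0.20 (p = 0.0998), and in R9 rats the median was -0.01.

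**Figure D4:**
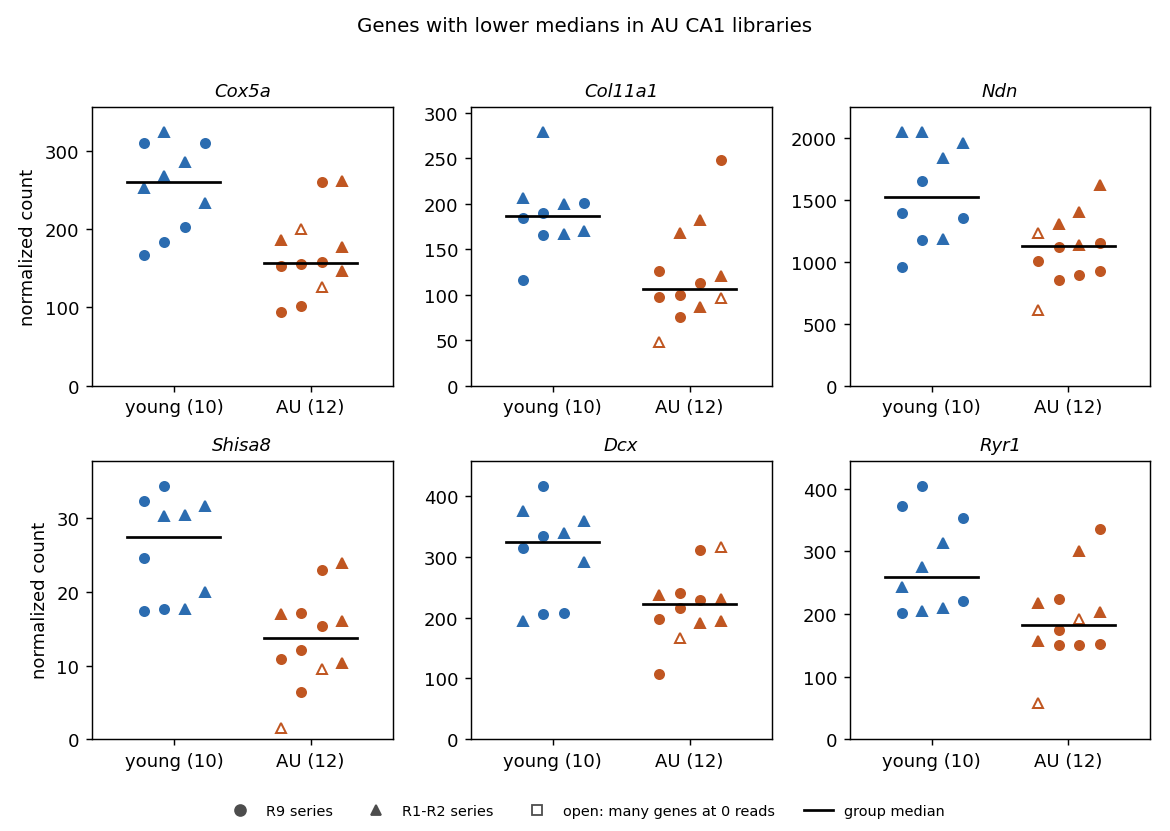
Normalized counts (vertical axes, linear, from 0) of 6 genes with lower medians in AU rats, in the CA1 libraries of 10 young (blue) and 12 AU rats (orange), with circles for R9, triangles for R1-R2, open symbols for AU rats R2230 and R2232, and lines for group medians. The groups overlap in each gene. In Shisa8, 10 of 12 AU rats are below the lowest young value of 17.4.

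Structural genes of synapses gave 0 calls at either threshold. Of 52 measured, 0 were higher and 0 lower at unadjusted p under 0.05, with a median of -0.07 (-0.03 without the 2 libraries). Of the genes of glutamate receptors 0 of 23, and of GABA receptors 0 of 13, were higher or lower at that threshold. Potassium channel genes gave 1 of 48 in each direction (2.08%, against 2.54% of all genes higher and 1.83% lower), which is near the share of all genes. Immediate early genes gave 1 of 28 lower (3.57%, against 1.83% of all genes), Egr4 (-0.40, p = 0.0461; -0.25 and p = 0.11 without the 2 libraries). Genes of the circadian clock gave 1 of 19 in each direction (5.26%, against 2.54% of all genes higher and 1.83% lower). They were Bhlhe41, higher (0.23, p = 0.02; 0.245 without the 2), and Per2, lower (-0.19, p = 0.0459; -0.13 and p = 0.135 without the 2). A p that misses the threshold does not show that such genes were alike in the 2 groups. In the list of cadherins and protocadherins, 3 of 34 were higher (8.82%, against 2.54% of all genes) and 0 lower, with a median of 0.008. Without the 2 libraries 4 were higher (against 3.3% of all genes) and 1 lower (against 1.66%), with a median of 0.06. Cdh1, the epithelial cadherin, was 2.15 to 140 in young (median 17.4) and 17.9 to 163 in AU rats (median 54.6), with 12 of 12 AU rats above the young median (1.64, SE 0.49, p = 0.00282; 1.6 without the 2 libraries).

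**Figure D5:**
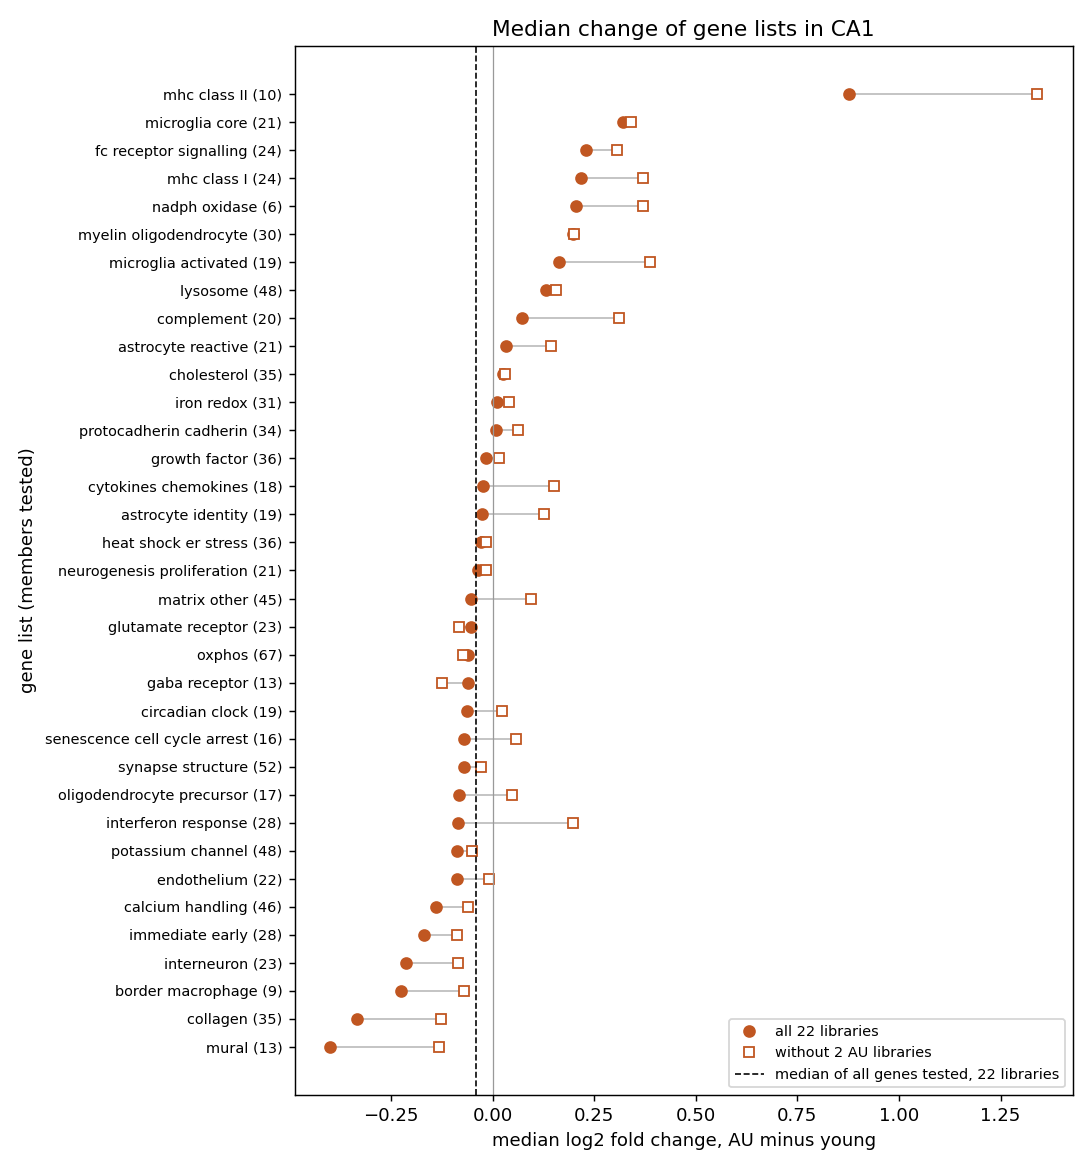
Median log2 fold change, AU minus young (horizontal axis), of lists of genes with the number of members tested in parentheses (vertical axis). Filled circles use the 22 libraries, open squares leave out AU rats R2230 and R2232, and the dashed line is the median of all genes tested, -0.0399. MHC class II is highest at 0.88, or 1.34 without the 2 libraries, and the mural and collagen lists move toward 0 without them.

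A published list of genes higher with age in every subfield was also examined, and it holds 24 genes. The study chose it in part on these same libraries, so it is not independent evidence of its direction. In the comparison of AU with young rats in CA1, 13 of 24 were higher at unadjusted p under 0.05 (54.2%, against 2.54% of all genes). At adjusted p under 0.05, 0 passed. Log2 fold changes were above 0 in 23 of 24 (against 42.3% of all genes), the exception being Wdfy4 at -0.04. The median was 0.40, with 0.59 in R9 rats and 0.26 in R1-R2 rats, or 0.56 there without R2230 and R2232. Without AU rats R2230 and R2232, 24 of 24 were higher at unadjusted p under 0.05 (against 3.3% of all genes) and the median was 0.59. A list of 28 genes that the study ties to memory impairment was chosen in part on these same AU libraries. Their values in AU against young rats are therefore not independent of that choice. Of the 28, 0 were higher or lower at unadjusted p under 0.05 in AU against young rats. The shares of all genes were 2.54% higher and 1.83% lower. Without the 2 libraries 1 of the 28 was lower (against 1.66% of all genes).

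Whether the AU against young difference was another one in CA1 than in CA3 or DG was tested within rats. For CA1 minus CA3, 0 of 16444 genes passed at adjusted p under 0.05 (0%), with 128 higher (0.778%) and 124 lower (0.754%) at unadjusted p under 0.05. For CA1 minus DG, 0 of 16287 passed (0%), with 234 higher (1.44%) and 260 lower (1.6%). The genes named here and in the next paragraph were mostly picked for small p in CA1. A larger difference in CA1 is favoured by that choice. Their unadjusted p-values are therefore not independent evidence that CA1 differs from CA3 or DG. Blnk had the larger difference in CA1, by 0.45 against CA3 (SE 0.21, p = 0.0402) and 0.40 against DG (SE 0.19, p = 0.0492), and neither passed the adjusted test. Without rats R2230 and R2232, whose CA1 values were the highest, these were 0.24 (p = 0.135) and 0.25 (p = 0.148), so the unadjusted calls rest on those rats. In CA3 and DG alone its log2 fold changes were 0.28 and 0.33.

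C4a (ENSRNOG00000000443) had a log2 fold change of 1.05 in CA1. In CA3 it was 0.87 and in DG 1.12, and the within-rat differences were 0.18 (SE 0.33) and -0.08 (SE 0.25). Gfap had 0.70, 0.39 and 0.47. RT1-Bb had 1.79, 2.08 and 1.78, and RT1-Db1 1.55, 2.63 and 1.65. For Shisa8 it was 0.47 in CA3, -0.26 in DG and -1.01 in CA1, and the within-rat difference of CA1 from CA3 was -1.48 (SE 0.54, p = 0.011, adjusted p = 1), or -1.27 (p = 0.0199) without the 2 rats. Ryr1 had -0.60 in CA1 and 0.006 in CA3 (difference -0.60, SE 0.28, p = 0.0384; -0.465 and p = 0.0793 without the 2 rats), and Vsnl1 -0.38 and 0.15 (difference -0.52, p = 0.0175; -0.46 and p = 0.0453 without the 2 rats). In DG, 2 genes (0.0124%) rose in AU rats, Gpnmb (1.02) and Cdh1 (2.43), both at adjusted p = 0.0241, and their CA1 values of 0.65 and 1.64 were smaller, with p = 0.116 and 0.158 for the difference within rats (0.196 and 0.14 without the 2 rats).

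AI rats, of the same age range as AU rats, differed from them in 0 of 16406 genes at adjusted p under 0.05 (0%), with 230 higher (1.4%) and 111 lower (0.677%) at unadjusted p under 0.05. AU and AI rats were each compared with the same young rats, so their values are set side by side. The single genes named here and in the next paragraph were picked for small p in AU against young rats. AI minus AU uses those same AU libraries, so a shift back toward young values is favoured by that choice. Their unadjusted p-values are therefore not independent evidence that AI and AU rats differ. Values given as without 3 libraries leave out AU rats R2230 and R2232 and AI rat R9874, and AI rat R2233 stays in. C4a (ENSRNOG00000000443) was 1.05 for AU and 1.02 for AI against young rats, and AI minus AU was -0.03 (SE 0.20), or -0.07 without 3 libraries. Blnk was 0.73 and 0.43 (AI minus AU -0.31, SE 0.16, p = 0.0621; -0.19 and p = 0.191 without 3 libraries), and Gfap 0.70 and 0.42 (-0.28, SE 0.13, p = 0.0377, adjusted p = 1; -0.28 and p = 0.0311 without 3 libraries). Gpr183 was 0.96 and 0.30 (-0.66, SE 0.26, p = 0.0189; -0.45 and p = 0.0606 without 3 libraries).

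Shisa8 was -1.01 and 0.08, with AI rats at 10.3 to 87.1 (median 24.1), and AI minus AU was 1.09 (SE 0.36, p = 0.00511, adjusted p = 1), or 0.85 (p = 0.01) without 3 libraries. Ndn was -0.50 and -0.12 (0.38, SE 0.15, p = 0.015; 0.34 and p = 0.0267 without 3 libraries). The class II sum in CA1 was 162 to 1842 in AI rats (median 684), 23 to 1789 in AU rats (median 769) and 90.3 to 1665 in young rats (median 142), so the ranges of the 3 groups overlapped. Without 3 libraries it was 162 to 1842 in AI (median 719) and 392 to 1789 in AU rats (median 991).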

How the data were processed

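Poly-A RNA was sequenced by the authors, aligned to rn5 with TopHat2 and Bowtie2 and counted on genes with featureCounts. The deposited signal is 1 table of normalized counts, which the authors made by dividing the counts of each library by a DESeq2 size factor. Whole reads were recovered from the deposited values (100% whole within 0.001) for tests that need counts. Strand of counting was not given in the sources used here. AU and young CA1 libraries were compared by limma 3.58.1 (lmFit, eBayes with trend) in R 4.3.3 on log2(value + 1), leaving out genes whose mean was under 5. P-values were adjusted after Benjamini and Hochberg and read against 0.05. Alternatives were edgeR 4.0.16 and DESeq2 1.42.0 on recovered reads, other pseudocounts (0.5 and 5) and filters, TMM rescaling, thinning to 5360495 reads, array weights, the identifier series, and leaving out each rat. Within-rat tests used CA1 minus CA3 or DG of the same rat, because libraries with the same number come from 1 animal. The deviations of a rat's CA1 library from its group correlated with those of its CA3 library at a median of 0.0572 (above 0.1 in 8 of 22 rats) and of its DG library at 0.0999 (11 of 22).

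Genes named are the 5 with the smallest p in each direction, up to 4 per list with the smallest p, the study's list of genes higher with age, and Col4a5. RT1-Ba was added after its values were seen. Members, lists and tests were chosen with earlier results of these data known. Promoters come from RefSeq (GRCr8), and the fits were tested on simulated data, where DESeq2 made more false calls than limma or edgeR. Figures used matplotlib 3.10.9 in Python 3.11.15.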

Additional observations from a re-analysis of the deposited data

How the results depend on the processing

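At adjusted p under 0.05 the comparison of AU with young rats in CA1 gave 0 genes, and DESeq2 gave 9, the identifier series as a covariate 1 and array weights 28 (27 higher and 1 lower). Leaving out each rat in turn gave 0 to 2. After the data were seen, AU rats R2230 and R2232 were left out, which gave 4 genes by limma, 6 by edgeR and 32 by DESeq2. The number higher at unadjusted p under 0.05, 415, was 800 by edgeR, 843 by DESeq2, 151 in R1-R2 rats alone, 799 with array weights, 686 by DESeq2 without the 2 libraries, 193 in R1-R2 rats without them, and 293 to 752 with each rat left out, highest without AU rat R1930. The number lower, 299, was 663 with no filter on low values, 153 in R1-R2 rats alone, 578 with array weights, 199 without 5 AU libraries, 126 in R1-R2 rats without the 2, and 198 to 705 with each rat left out, lowest without young rat R2175 and highest without AU rat R1930. The cause of these shifts was not tested. TMM rescaling gave 381 higher and 354 lower, which moved the share of higher among both from 58.1% to 51.8%.

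For CA1 minus CA3 within rats, 82 rather than 124 genes were lower at a mean of at least 20. Without the replicate block, that is with CA1 and CA3 libraries treated as unpaired, 88 were higher and 89 lower in place of 128 and 124, and for CA1 minus DG 160 and 207 in place of 234 and 260. No call at adjusted p under 0.05 was gained or lost by the block. For AI against AU, 111 lower genes became 172 by edgeR and 217 without the libraries with many absent genes.

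Of 75 gene entries followed through 41 alternatives, 68 had no fold change of the other sign and 7 had at least 1. In R1-R2 rats alone the log2 fold changes of RT1-Ba (-0.219), Npc2 (-0.0588), Cd4 (-0.183), Pld4 (-0.0956), Gpr84 (-0.361) and Ctss (-0.0382) were below 0. Those rats include AU rats R2230 and R2232, both at 0 for RT1-Ba. The other genes named here are on the published age list. Without these 2 libraries, all 24 genes of that list were above 0 in R1-R2 rats. Wdfy4, at -0.04 over the 22 libraries, was 0.123 with a pseudocount of 5, 0.429 by edgeR, 0.435 by DESeq2, 0.614 in R9 rats, 0.657 with array weights, 0.0503 after thinning, 0.618, 0.638 and 0.637 by limma, edgeR and DESeq2 without the 2 libraries, 0.581 without 5, 0.548 in R1-R2 rats without the 2, and -0.146 to 0.453 with each rat left out. Depth limits the low genes, since a gene at 5 normalized counts rests on a few reads per library.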

Other observations

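Young rat R9780 of the R9 series often had the highest young value of genes that were higher in AU rats. Of 54 named gene entries higher at unadjusted p under 0.05, it held the highest young value in 22 (40.7%), whereas it held the highest young value in 11.7% of all 16364 genes. The next was young rat R9877 with 9 of 54 (16.7%, against 6.06% of all genes). The sum of RT1-Bb, RT1-Da, RT1-Db1, RT1-Ba and Cd74 in the CA1 library of rat R9780 was 1665, the highest of the young rats. Its CA3 library, at 1106, came directly after the highest young sum of 1681, and its DG library, at 285, directly after the highest of 292. The next young sums below it were 558 in CA3 and 204 in DG. Its microglial and oligodendrocyte marker sums were also the highest of the young CA1 libraries, at 6022 and 189327. Without rat R9780 the log2 fold change of Gfap was 0.77 (adjusted p = 0.0604) and that of Cd74 1.46 (adjusted p = 0.867), both by limma. An outlier rule, Dixon's gap test on the log2 values of the 10 young rats, flagged 0 of 75 named gene entries. The cause of the high values in rat R9780 was not tested.

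In CA3 the class II sum was 454 to 7829 in AU rats (median 1303) and 150 to 1681 in young rats (median 296), and in DG 170 to 1528 (median 390) and 53.7 to 292 (median 170). AU rats of the R1-R2 series had the lower sums of the 2 series in CA1 (median 412 against 1414) and in DG (244 against 814), but the higher ones in CA3 (2361 against 1008).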
